A study of Mus musculus with 21 samples.

Results

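A set of 10 genes of the p53 death programme was followed in mouse embryonic stem cells: Bbc3, Pmaip1, Bax, Fas, Tnfrsf10b, Apaf1, Perp, Aen, Trp53inp1 and Eda2r. They were taken by symbol from the deposited expression table, where each had 1 row, and are 10 of its 20900 genes. All 10 passed the filter on low values. The cells were E14, a single embryonic stem cell line of the 129 strain, grown with serum and leukaemia inhibitory factor, which holds such cells in the undifferentiated state. Medium was replaced by medium that held BMH-21 or CX-5461 at 1 µM. Both are small-molecule blockers of RNA polymerase I, which makes the large ribosomal RNA precursor. Poly(A) RNA was sequenced from untreated cells at 0 h and after 2, 4 and 8 h of either inhibitor, in 3 libraries per group and 21 libraries in all. No allele or other treatment is labelled for any group. The 0 h group is the control for all 6 treated groups, so a change against it also holds the time since the medium change. The labels do not say whether the 3 libraries of a group came from separate cultures, so the spread behind the p-values may be technical. On the deposited scale that spread is mostly a value fitted over all genes, in which a gene's own libraries have little weight.

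The transcription factor p53 is stabilised when ribosome production is disturbed, because free ribosomal proteins bind its inhibitor Mdm2. Its death targets act at several points. BH3-only proteins (Bbc3, also called PUMA, and Pmaip1, also called NOXA) neutralise the BCL2 guardians, which lets Bax open the outer mitochondrial membrane, and Apaf1 then binds the released cytochrome c and assembles the apoptosome that activates caspase 9. Fas, Tnfrsf10b (the mouse TRAIL receptor) and Eda2r (the receptor of the A2 form of ectodysplasin) sit in the cell membrane. Perp is a membrane protein of the PMP22 family, Aen is a nuclease, and Trp53inp1 is a nuclear stress protein that binds p53.

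Promoter sequences are shown first because p53 acts by binding DNA, and to set Bax, which was not called higher on the deposited scale, beside Aen, which rose least of the others, and 2 genes that rose strongly. RefSeq promoter windows of the mouse build GRCm38.p6, from 250 bases before to 50 bases after a transcription start, were at hand for 6 of the 10 members, in 9 windows. They were searched for exact matches to the p53 half-site consensus, a motif of 10 bases that reads alike on both strands. Capitals below mark the half-site matches and, in Bax and Cdkn1a, also a neighbouring decamer with at most 1 mismatch at a spacing of at most 1 base. That definition of a pair was chosen after the sequences had been seen. An exact half-site stood in 8.36% of all 32851 windows, and a pair in 0.18%. Bax and Aen held one, Bbc3 (3 windows), Apaf1, Fas and Eda2r held none in these windows. Cdkn1a, the cell cycle inhibitor used as a reference target of p53, is shown beside them in the window that held matches. Another Cdkn1a window, chr17:29093519-29093818 on the plus strand, held no half-site and no pair and is not printed. The Bax window is chr7:45466849-45467148 on the minus strand, the Aen window chr7:78895808-78896107 on the plus strand and the Cdkn1a window chr17:29090729-29091028 on the plus strand.
Bax: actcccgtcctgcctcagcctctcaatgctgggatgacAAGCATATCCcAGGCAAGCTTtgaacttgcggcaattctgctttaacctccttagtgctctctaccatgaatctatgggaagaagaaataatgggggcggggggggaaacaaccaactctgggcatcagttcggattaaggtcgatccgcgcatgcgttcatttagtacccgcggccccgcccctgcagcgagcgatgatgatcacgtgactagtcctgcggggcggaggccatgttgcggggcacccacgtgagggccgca
Aen: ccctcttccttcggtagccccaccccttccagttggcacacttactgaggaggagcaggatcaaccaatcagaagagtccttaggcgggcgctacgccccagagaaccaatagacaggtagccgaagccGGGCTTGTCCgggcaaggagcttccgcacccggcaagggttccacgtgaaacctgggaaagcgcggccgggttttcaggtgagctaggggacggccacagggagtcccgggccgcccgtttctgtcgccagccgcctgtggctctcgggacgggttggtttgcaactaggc
Cdkn1a: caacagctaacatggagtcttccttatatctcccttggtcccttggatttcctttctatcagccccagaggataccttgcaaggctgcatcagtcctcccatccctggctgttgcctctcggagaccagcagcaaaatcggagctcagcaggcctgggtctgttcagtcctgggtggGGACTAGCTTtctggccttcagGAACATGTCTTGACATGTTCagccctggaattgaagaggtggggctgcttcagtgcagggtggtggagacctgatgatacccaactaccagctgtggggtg

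The Bax half-site begins 201 bases before the start, with its pair beginning at -212 and 1 base between them. In Aen the match begins 121 bases before this start, and the other Aen window holds the same bases. The Cdkn1a matches begin at -73 and -51, and the decamer that begins at -51 runs into its partner without a spacer. A match is a description of letters and no match says only that these letters are missing from the window. The last sequence shows a neighbour that shares a promoter with a member: the Apaf1 window, chr10:91082694-91082993 on the minus strand, overlaps that of Ikbip, which is read in the other direction. The 205 bases that both windows hold are in capitals, and the RefSeq starts lie 296 bases apart.
Apaf1: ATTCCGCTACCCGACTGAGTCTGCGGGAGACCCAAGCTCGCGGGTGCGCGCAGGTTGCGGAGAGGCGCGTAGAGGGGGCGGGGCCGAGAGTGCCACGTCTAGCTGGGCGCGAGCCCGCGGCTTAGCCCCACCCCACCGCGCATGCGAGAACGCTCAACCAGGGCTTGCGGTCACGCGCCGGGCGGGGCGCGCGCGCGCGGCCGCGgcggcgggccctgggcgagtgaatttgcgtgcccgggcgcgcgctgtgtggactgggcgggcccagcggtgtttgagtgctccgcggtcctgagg

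The values below are the authors' deposited log2 values, from a table normalized with voom, in which a value of 0 stands for 42 to 86 reads depending on the library. Libraries held 46604397 to 62812641 reads over the genes of the table. The deposited values carry 1 scaling factor per library, which ran from 1.2093 to 1.3751 after 8 h of BMH-21 but from 0.8881 to 0.9428 after 8 h of CX-5461. When each library was instead centred on the median of the genes tested, a shift common to all genes was removed, of -0.21 at 8 h of BMH-21 against control, 0.22 at 8 h of CX-5461 against control and -0.43 between the inhibitors at 8 h. Centred values or counts are printed where they change a call. Shares of all genes are those of the deposited scale throughout, so centred counts have no share beside them. The markers of embryonic stem cells summed to 5690 to 5740 reads per 1000000 in the control libraries, 3480 to 3950 at 8 h of BMH-21 and 5140 to 5190 at 8 h of CX-5461, and 8 of the 8 were called lower at 8 h of BMH-21, beside 56.9% of all genes tested. After 8 h of CX-5461 5 of 8 were called lower, beside 14.3%, and 1, Tdgf1, higher. With centred libraries 6 were called lower there, as Sox2 (-0.34) was added. The 8 fibroblast markers, for feeder cells, summed to 30.2 to 30.9 in the control libraries. Their sums were 61.4 to 67.7 at 8 h of BMH-21 and 43.1 to 45.2 at 8 h of CX-5461. Of these 8 markers 4 passed the filter on low values. At 8 h of BMH-21 Col1a1 (1.86) and Pdgfra (2.01) were called higher, Thy1 (-1.41) was called lower and Col1a2 (0.065) was not called. At 8 h of CX-5461 Col1a1 (1.24), Pdgfra (0.925) and Col1a2 (0.60) were called higher and Thy1 (-0.13) was not called. With centred libraries Col1a2 (0.39) was not called there and Thy1 (-0.35) was called lower. None of the markers was at 0 in all libraries of a group, the part of cell makeup in the results below was not tested, and in bulk RNA fewer cells of a type and less RNA per cell cannot be told apart.

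With both inhibitors 9 of the 10 genes were already higher at 2 h, and on the deposited scale Bax was the exception. At 2 h of BMH-21 9 of 10 rose (limma adjusted p under 0.05), against 8.48% of all 14666 genes tested. At 2 h of CX-5461 9 of 10 rose, against 7.45% of all genes. At 4 h 9 of 10 were called higher with BMH-21 and 9 of 10 with CX-5461, beside 22.1% and 19.8% of all genes. At 8 h the counts were 8 of 10 higher with BMH-21 (24.5% of all genes) and 9 of 10 with CX-5461 (35.1%). Bax was the 1 gene called lower at 8 h of BMH-21, where 56.9% of all genes were, and other scalings ended or reversed that call. The median change of the 10 genes against control was 1.26, 2.33 and 2.30 at 2, 4 and 8 h of BMH-21. For CX-5461 it was 1.20, 1.91 and 1.68. Over all genes tested the medians were -0.08, -0.21 and -0.40 in the BMH-21 comparisons, and for CX-5461 they were -0.18, -0.28 and 0.11. All 6 of these comparisons share the same 3 control libraries. By the rule that a first answer needs an adjusted p under 0.05 and no overlap with the control values, 9 genes answered first at 2 h with each inhibitor, beside 7.85% of all genes higher by this rule with BMH-21 and 6.98% with CX-5461. Bax alone answered first at 8 h of BMH-21, downward, beside 55.5%, and none answered first at 4 h on the deposited scale.

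**Figure D1:**
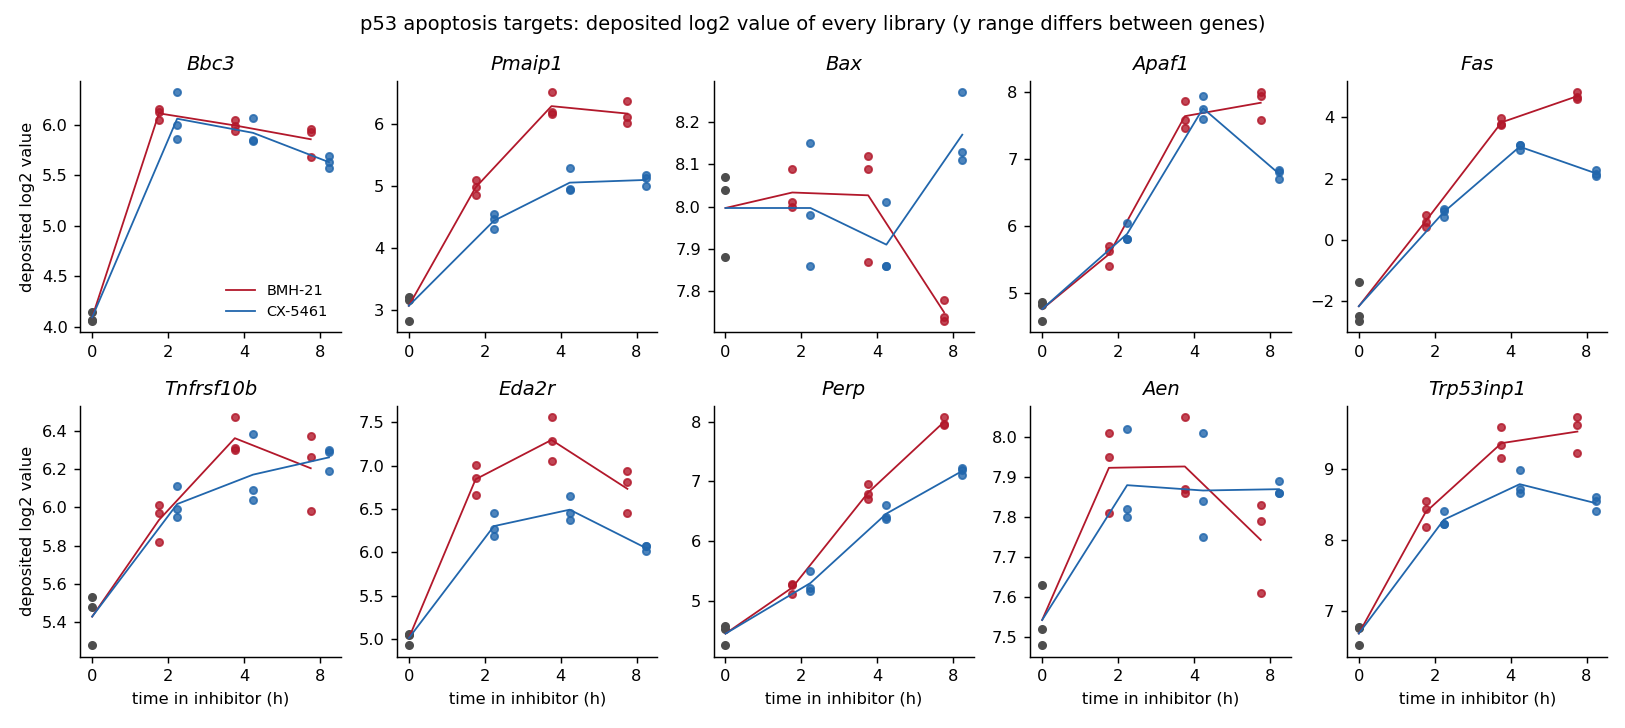
Deposited log2 value (y axis, range differs between genes) of every library against hours in inhibitor (x axis, times drawn at equal steps), with points for the 3 libraries of each group and lines through the group means. All 9 genes other than Bax leave the control values at 2 h with both inhibitors, while the Bax values stay between 7.73 and 8.27 throughout.

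Bbc3, the BH3-only protein that binds all the BCL2 guardians, answered at 2 h and did not rise further in any later step on the deposited scale. Its control libraries stood at 4.07, 4.06 and 4.15, and the libraries after 2 h of BMH-21 at 6.05, 6.13 and 6.16. They were 5.99, 5.94 and 6.05 at 4 h and 5.93, 5.68 and 5.96 at 8 h of BMH-21. With CX-5461 the 3 values were 6.32, 6.00 and 5.86 at 2 h, 5.84, 6.07 and 5.85 at 4 h and 5.69, 5.57 and 5.63 at 8 h. Every treated library lay above every control library, and on the deposited scale the group means were highest at 2 h with both inhibitors. With median-ratio factors the BMH-21 change was instead largest at 8 h (2.12, and 2.08 at 4 h). The change was 2.02 ± 0.11 (SE) at 2 h of BMH-21 (4.06-fold, limma adjusted p = 9.4e-35) and 1.97 ± 0.11 at 2 h of CX-5461 (3.91-fold, limma adjusted p = 8.2e-34). Between 4 and 8 h of CX-5461 Bbc3 fell by 0.29 ± 0.11 (limma adjusted p = 0.015). That call was lost without replicate 2 of the 4 h group (-0.22, limma adjusted p = 0.086) or replicate 2 of the 8 h group (-0.27, limma adjusted p = 0.06).

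Pmaip1, the BH3-only protein that targets MCL1, split the inhibitors from the start. At 2 h it had risen less than Bbc3 with both inhibitors. At 4 and 8 h its rise was the larger, though at 4 h of CX-5461 the values were close (1.98 and 1.83). The difference between the 2 genes was not tested. The control values were 3.21, 3.17 and 2.83. With BMH-21 they went to 4.85, 5.09 and 4.98 at 2 h, to 6.50, 6.16 and 6.18 at 4 h and to 6.11, 6.01 and 6.36 at 8 h. With CX-5461 they were 4.55, 4.30 and 4.46, then 4.93, 5.28 and 4.94, then 5.17, 4.99 and 5.12. At each of the 3 times all BMH-21 libraries lay above all CX-5461 libraries. The change against control was 1.90 ± 0.12 at 2 h and 3.21 ± 0.12 at 4 h of BMH-21 (9.23-fold, limma adjusted p = 2.7e-53). With CX-5461 it was 1.36 ± 0.12 at 2 h and 1.98 ± 0.12 at 4 h (3.95-fold, limma adjusted p = 3.5e-33).

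Bax, the pore-forming effector on which the BH3-only proteins converge, was the member that was not called higher at any time on the deposited scale, though it was on others. Its control values were 8.04, 8.07 and 7.88. With BMH-21 they were 8.00, 8.09 and 8.01 at 2 h, 8.12, 7.87 and 8.09 at 4 h and 7.74, 7.78 and 7.73 at 8 h. With CX-5461 they were 8.15, 7.86 and 7.98 at 2 h, 7.86, 8.01 and 7.86 at 4 h and 8.27, 8.11 and 8.13 at 8 h. The groups overlapped the control at 2 and 4 h, the BMH-21 8 h libraries lay below it and the CX-5461 8 h libraries above it. At 8 h of BMH-21 Bax fell by 0.25 ± 0.10 (limma adjusted p = 0.022), but the change was -0.04 with centred libraries (adjusted p = 0.60) and 0.11 with median-ratio factors (0.089), and with quantile normalization Bax was called higher, by 0.38 (1.2e-05). The call was also lost on leaving out any of 4 libraries: control replicate 1 (-0.22) or 2 (-0.21), or BMH-21 8 h replicate 1 (-0.24) or 3 (-0.24). The other 5 changes ran from -0.09 to 0.17 and were not called, though a fit to only the groups compared called the 0.17 at 8 h of CX-5461 (limma adjusted p = 0.048). Other scalings called Bax higher in 4 of these 5. At 4 h of BMH-21 it rose by 0.18 with centred libraries, by 0.21 with median-ratio factors and by 0.28 with quantile normalization (limma adjusted p = 0.01, 0.0025 and 0.00053). At 4 h of CX-5461 it rose by 0.16 and 0.28 with median-ratio factors and quantile normalization (0.018 and 0.00055). Median-ratio factors gave a rise of 0.18 at 2 h of CX-5461 (0.02), and quantile normalization one of 0.31 at 8 h of CX-5461 (0.00026). Per total reads, all 18 treated libraries lay between 147 and 192 reads per kilobase of exon per 1000000 reads, above the control libraries at 140 to 142. Calls for Bax thus differ between the scalings, and the largest change under those run was 0.38. At 2 h the deposited changes were 0.04 with BMH-21 (95% interval -0.17 to 0.24) and 0.00 with CX-5461 (-0.20 to 0.20). Gm45808, a gene model that overlaps Bax on the same strand, was not analysed here, and reads of the overlap cannot be told apart. Windows were at hand for only 6 of the members, and among these 9 windows only the Bax window printed above held a pair. The rule for a pair was chosen after the sequences had been seen. The Bax pair stands at both limits of that rule, with a spacer of 1 base and 1 mismatch. The pair thus cannot set Bax apart from the other members, and its part in the Bax values was not tested.

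Apaf1, the scaffold of the apoptosome, made its main step between 2 and 4 h. Control libraries stood at 4.83, 4.87 and 4.59. BMH-21 libraries were at 5.41, 5.70 and 5.63 at 2 h, 7.87, 7.58 and 7.46 at 4 h and 7.94, 7.58 and 7.99 at 8 h. CX-5461 libraries were at 6.05, 5.80 and 5.80, then 7.59, 7.93 and 7.74, then 6.84, 6.70 and 6.80. The 4 h values of the inhibitors overlapped, and the 8 h values of CX-5461 lay below all its 4 h values. The change against control at 2 h was 0.82 ± 0.11 in the BMH-21 libraries (limma adjusted p = 1e-09), while CX-5461 gave 1.12 ± 0.11 (limma adjusted p = 6.7e-16). At 4 h it was 2.88 ± 0.11 (7.34-fold) and 2.99 ± 0.11 (7.95-fold). The step from 2 to 4 h was 2.06 ± 0.11 under BMH-21 (limma adjusted p = 2.1e-35), and under CX-5461 it was 1.87 ± 0.11 (limma adjusted p = 1.3e-31). Ikbip, the divergent neighbour that shares the promoter window shown above and is itself a p53 target, rose by 0.92, 2.45 and 2.38 at 2, 4 and 8 h of BMH-21. In the CX-5461 libraries Ikbip rose by 0.93, 1.97 and 1.51. The gene bodies of Apaf1 and Ikbip are 169 bases apart in GENCODE M21 and do not overlap.

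Fas, the receptor of Fas ligand, had the largest span of the 10 genes, 6.85 log2 units between group means. It began almost silent, with control values of -2.64, -1.38 and -2.48, which stand for 7 to 17 reads per library. BMH-21 took it to 0.42, 0.81 and 0.59 at 2 h, to 3.96, 3.76 and 3.78 at 4 h and to 4.59, 4.67 and 4.81 at 8 h. CX-5461 took it to 1.02, 0.75 and 0.95 at 2 h, 3.10, 3.08 and 2.94 at 4 h and 2.09, 2.28 and 2.15 at 8 h. No group overlapped the control, and with CX-5461 the 8 h libraries lay between those of 2 and 4 h. At 2 h the change was 2.78 ± 0.16 under BMH-21 (6.85-fold, limma adjusted p = 1.6e-31) and 3.07 ± 0.16 under CX-5461 (8.42-fold, limma adjusted p = 1.8e-35). At 8 h it was 6.85 ± 0.16 with BMH-21 (116-fold) and 4.34 ± 0.16 with CX-5461 (20.3-fold). With so few control reads the offset of 0.5 reads understates these folds, and the 8 h BMH-21 change ran from 5.98 under quantile normalization to 7.25 without control replicate 2. The 8 h CX-5461 change was 2.88 under quantile normalization.

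Tnfrsf10b rose modestly and stayed up. Its control values ran from 5.28 to 5.53 and those of the 18 treated libraries from 5.82 to 6.47, with no overlap. Over 2, 4 and 8 h of BMH-21 the change was 0.50 ± 0.11, 0.93 ± 0.11 and 0.77 ± 0.11 (limma adjusted p = 0.00017, 3.4e-13 and 2.6e-10), and quantile normalization gave 1.17 at 8 h. With CX-5461 it was 0.58 ± 0.11, 0.74 ± 0.11 and 0.83 ± 0.11 (limma adjusted p = 9.2e-06, 2.8e-09 and 6.1e-11). The largest of these, 0.93, is a 1.90-fold rise, while Fas, another death receptor, had risen 64.0-fold at that time.

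Eda2r, the third membrane receptor of the list, came up early and turned down after 4 h. The control values were 5.05, 5.06 and 4.93. With BMH-21 they were 6.66, 7.01 and 6.86 at 2 h, 7.56, 7.28 and 7.05 at 4 h and 6.81, 6.45 and 6.94 at 8 h. With CX-5461 they were 6.45, 6.27 and 6.19, then 6.37, 6.65 and 6.46, then 6.07, 6.02 and 6.07. All treated libraries were above the controls, and the 8 h libraries of each inhibitor lay below its 4 h libraries. The change was 1.83 ± 0.11 at 2 h of BMH-21 (3.56-fold, limma adjusted p = 4e-30) and 1.29 ± 0.11 at 2 h of CX-5461 (2.44-fold, limma adjusted p = 3.5e-19). Eda2r fell from 4 to 8 h by 0.57 ± 0.11 in BMH-21 (limma adjusted p = 7.9e-06), and in CX-5461 by 0.44 ± 0.11 (0.00045).

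Perp kept climbing through 8 h with both inhibitors. Its control values were 4.52, 4.57 and 4.25. With BMH-21 they were 5.12, 5.28 and 5.26 at 2 h, 6.95, 6.70 and 6.79 at 4 h and 7.95, 7.97 and 8.08 at 8 h. With CX-5461 they were 5.50, 5.17 and 5.22, then 6.41, 6.60 and 6.37, then 7.23, 7.10 and 7.20. Each time point lay wholly above the one before it. The change at 2 h was 0.78 ± 0.11 in BMH-21 (limma adjusted p = 2.3e-09) and 0.85 ± 0.11 in CX-5461 (6.8e-11), and at 8 h it was 3.55 ± 0.11 (11.7-fold) and 2.73 ± 0.11 (6.63-fold). Perp rose from 4 to 8 h by 1.19 ± 0.11 in BMH-21 (limma adjusted p = 3.5e-18), and in CX-5461 by 0.72 ± 0.11 (1.1e-08). At 2 h it had made 21.8% of its 8 h change with BMH-21 and 31.2% with CX-5461, on the log2 scale, the lowest shares among the 9 genes that rose on that scale. Bbc3 stood at 114.7% and 128% in the same measure.

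Trp53inp1 rose in 2 steps with BMH-21 and peaked at 4 h with CX-5461. The control values were 6.76, 6.78 and 6.52. BMH-21 libraries stood at 8.19, 8.55 and 8.44, then 9.59, 9.34 and 9.16, then 9.62, 9.23 and 9.73. CX-5461 libraries stood at 8.41, 8.23 and 8.22, then 8.66, 8.98 and 8.72, then 8.60, 8.41 and 8.55. No treated library came near the controls, and the BMH-21 and CX-5461 libraries did not overlap at 4 or 8 h. By 2 h Trp53inp1 had risen 3.26-fold in BMH-21 (1.71 ± 0.11, limma adjusted p = 6.5e-29) and 3.03-fold in CX-5461 (1.60 ± 0.11, limma adjusted p = 9.1e-27). At 8 h it was 2.84 ± 0.11 (7.14-fold) and 1.83 ± 0.11 (3.56-fold).

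Aen, whose promoter window holds a half-site, rose least of the 9 genes. Its control values ran from 7.48 to 7.63 and the treated ones from 7.61 to 8.05. Only the BMH-21 8 h group, at 7.83, 7.61 and 7.79, overlapped the control. The change was 0.38 ± 0.10 at 2 h and 0.38 ± 0.10 at 4 h of BMH-21 (limma adjusted p = 0.003 and 0.00065). At 8 h of BMH-21 it was 0.20 ± 0.10 and not called (limma adjusted p = 0.063), while centred libraries gave 0.41 (6e-11). With CX-5461 it was 0.34, 0.33 and 0.33 at 2, 4 and 8 h, each ± 0.10 and called, with a centred value of 0.11 at 8 h.

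**Figure D2:**
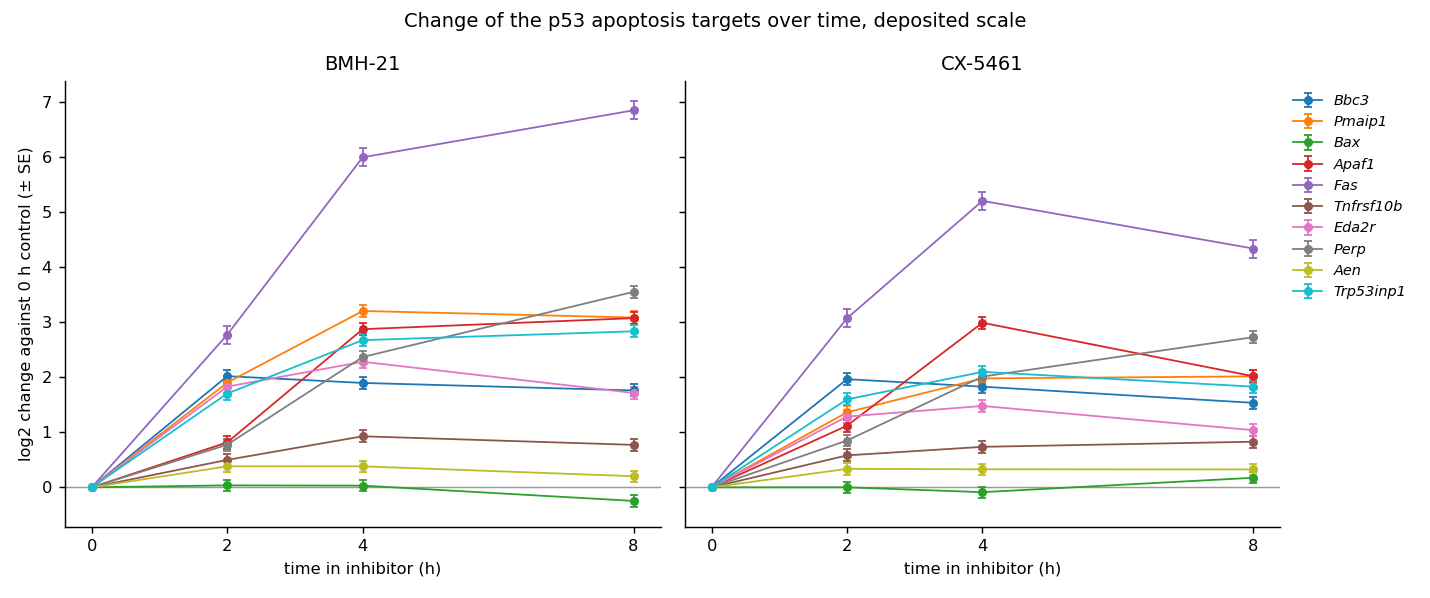
Log2 change against the 0 h control (y axis, mean difference ± SE) of the 10 genes against hours in BMH-21 (left) and CX-5461 (right). Fas reaches 6.85 and Perp 3.55 at 8 h of BMH-21, while with CX-5461 the Fas line turns down from 5.21 at 4 h to 4.34 at 8 h.

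After the first 2 h the genes parted by time step. In the 2 to 4 h step of BMH-21 7 of the 10 rose further, against 20.8% of all genes, by between 0.43 (Tnfrsf10b) and 3.22 (Fas). From 2 to 4 h of CX-5461 5 of 10 rose, against 20.7%: Pmaip1 by 0.62, Fas by 2.14, Apaf1 by 1.87, Perp by 1.16 and Trp53inp1 by 0.50. Centring added Tnfrsf10b (0.17) and Eda2r (0.20) to them. In the 4 to 8 h step of BMH-21 Perp and Fas (0.85 ± 0.16) rose, 2 of 10 beside 18.6% of all genes. Eda2r and Bax (-0.28 ± 0.10) fell in that step, 2 of 10 beside 37.8%. The Bax fall was lost without BMH-21 4 h replicate 1 (-0.23) or replicate 3 (-0.25), or without BMH-21 8 h replicate 3 (-0.27). With centred libraries 4 genes rose in that step and 3 fell, since Apaf1 (0.26) and Trp53inp1 (0.22) joined the rises and Aen (-0.12) the falls.

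The last step of CX-5461 brought more falls than rises. Between 4 and 8 h of CX-5461 5 of 10 fell, beside 4.85% of all genes, and 2 rose, beside 58.8%. Apaf1 fell by 0.97 ± 0.11 (limma adjusted p = 4.6e-13), Fas by 0.87 ± 0.16 (3e-06), and Eda2r, Bbc3 and Trp53inp1 by 0.44, 0.29 and 0.27. The fall of Trp53inp1 was lost without CX-5461 4 h replicate 2 (-0.17) or CX-5461 8 h replicate 2 (-0.21). Perp (0.72) and Bax (0.26 ± 0.10) rose, and the Bax value turned to -0.11 with centred libraries. All genes together moved up in this step by 0.34 in the median, and with centred libraries 8 of 10 fell and Perp alone rose. The 3 added falls were those of Pmaip1 (-0.34), Tnfrsf10b (-0.28) and Aen (-0.38).

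At matched dose and time the inhibitors were compared directly for each of the 10 genes at each of the 3 times, with p-values adjusted over all genes tested. At 2 h 2 of 10 were higher with BMH-21, beside 2.47% of all genes: Pmaip1 by 0.54 ± 0.12 (limma adjusted p = 0.00068) and Eda2r by 0.54 ± 0.11 (0.00042). None was called lower, beside 1.52%, and with centred libraries 2 were, Apaf1 (-0.38) and Tnfrsf10b (-0.15). At 4 h 5 of 10 were higher with BMH-21, beside 9.35%: Pmaip1 by 1.23, Eda2r by 0.80, Fas by 0.79, Trp53inp1 by 0.58 and Perp by 0.36. The Perp call was lost without BMH-21 4 h replicate 1 (0.29) or CX-5461 4 h replicate 3 (0.31). None was called lower at 4 h, beside 8.49% of all genes. With centred libraries 6 were higher and 1 lower at 4 h, as Tnfrsf10b (0.18) and Apaf1 (-0.13) were then called.

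At 8 h 6 of 10 were higher with BMH-21, beside 12.0% of all genes, and Bax was lower, beside 67.2%. Fas differed by 2.51 (95% interval 2.19 to 2.84, limma adjusted p = 1.8e-28), which is 5.71-fold. Pmaip1 differed by 1.07 (0.842 to 1.298), Apaf1 by 1.06 (0.84 to 1.28), Trp53inp1 by 1.01 (0.79 to 1.22), Perp by 0.82 (0.61 to 1.04) and Eda2r by 0.68 (0.45 to 0.90). Bbc3, at 0.23 (0.01 to 0.44), just missed the threshold (limma adjusted p = 0.052). It passed on centring (0.65) and without BMH-21 8 h replicate 2 (0.31, limma adjusted p = 0.011). For Tnfrsf10b the difference was -0.06 (-0.27 to 0.16) and for Aen -0.12 (-0.33 to 0.08), both not called. Bax was lower by 0.42 (-0.62 to -0.22, limma adjusted p = 0.00013). These last 3 depend on the scale, since centring gave 0.37 for Tnfrsf10b and 0.30 for Aen, both called higher, and 0.01 for Bax, not called. The 6 genes called higher were also higher on centring, by 1.10 to 2.94.

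**Figure D3:**
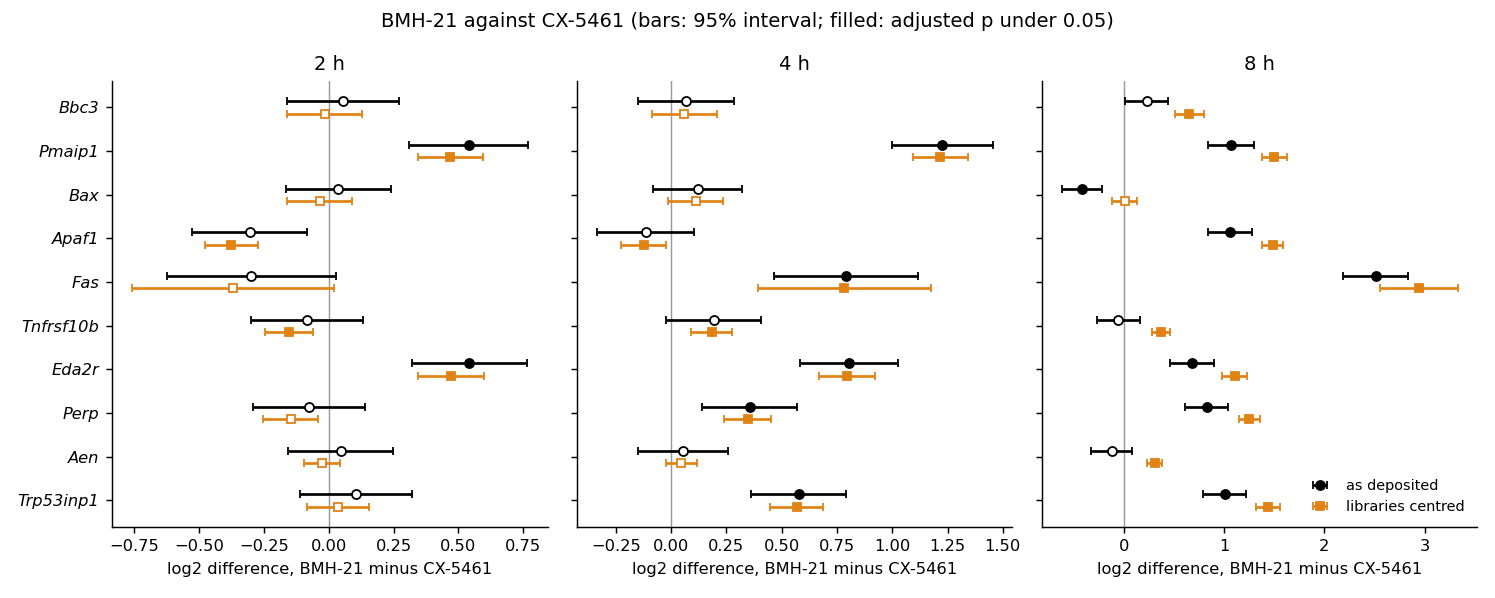
Log2 difference, BMH-21 minus CX-5461 (x axis, with 95% intervals), of each gene (y axis) at 2, 4 and 8 h, as deposited (circles) and with centred libraries (squares), filled where the adjusted p is under 0.05. At 8 h the Fas difference of 2.51 stands apart from the other 9 genes, which lie between -0.42 and 1.07 as deposited, and the centred values all lie further right.

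The time steps themselves were compared between the inhibitors as an interaction. From 2 to 4 h 2 of 10 rose more with BMH-21, beside 1.10% of all genes: Fas, by 1.09 ± 0.23 more (limma adjusted p = 0.00089), and Pmaip1, by 0.69 ± 0.16 more (0.004). In the 4 to 8 h step 4 of 10 changed upward by more with BMH-21, beside 7.98%: Fas by 1.72 ± 0.23, Apaf1 by 1.17 ± 0.16, Perp by 0.47 ± 0.15 and Trp53inp1 by 0.43 ± 0.15. Bax differed by -0.54 ± 0.14 in that step, beside 61.4% of all genes called lower, and by -0.10 with centred libraries, where the call was lost. Centring called 7 genes higher in the first of these steps, between 0.25 (Apaf1) and 1.15 (Fas), and 9 in the second, between 0.19 (Tnfrsf10b) and 2.16 (Fas).

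Levels were compared between genes as reads per kilobase of exon per 1000000 reads (RPKM), computed from recovered whole reads and GENCODE M21 exon lengths, without the deposited factors. In the controls Bax stood highest, at 141 ± 0.87 RPKM (SD, n = 3), followed by Aen at 28.0 ± 1.48, Trp53inp1 at 13.9 ± 0.37 and Perp at 9.73 ± 0.42. Next came Bbc3 at 7.02 ± 0.79 and Tnfrsf10b at 6.90 ± 0.16, which overlapped. Eda2r was at 4.78 ± 0.11, Pmaip1 at 2.68 ± 0.19 and Apaf1 at 2.62 ± 0.08, of which the last pair overlapped, and Fas was last at 0.0964 ± 0.0479 RPKM. At 8 h of BMH-21 the values of Perp (166 ± 11.7 RPKM) overlapped those of Bax (173 ± 16.5). Those of Trp53inp1 (144 ± 15.6) overlapped those of Perp and lay below those of Bax. Fas, at 15.8 ± 1.52 RPKM, then overlapped Tnfrsf10b at 17.1 ± 1.16. At 8 h of CX-5461 Bax (168 ± 4.85 RPKM), Perp (68.1 ± 1.66) and Trp53inp1 (52.1 ± 2.28) stayed apart, and Fas was at 2.01 ± 0.19. On this scale the mean level of Bax was above the control in all 6 treated groups, from 152 RPKM at 2 h to 173 at 8 h of BMH-21, while on the deposited scale it was lower at 8 h of BMH-21.

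**Figure D4:**
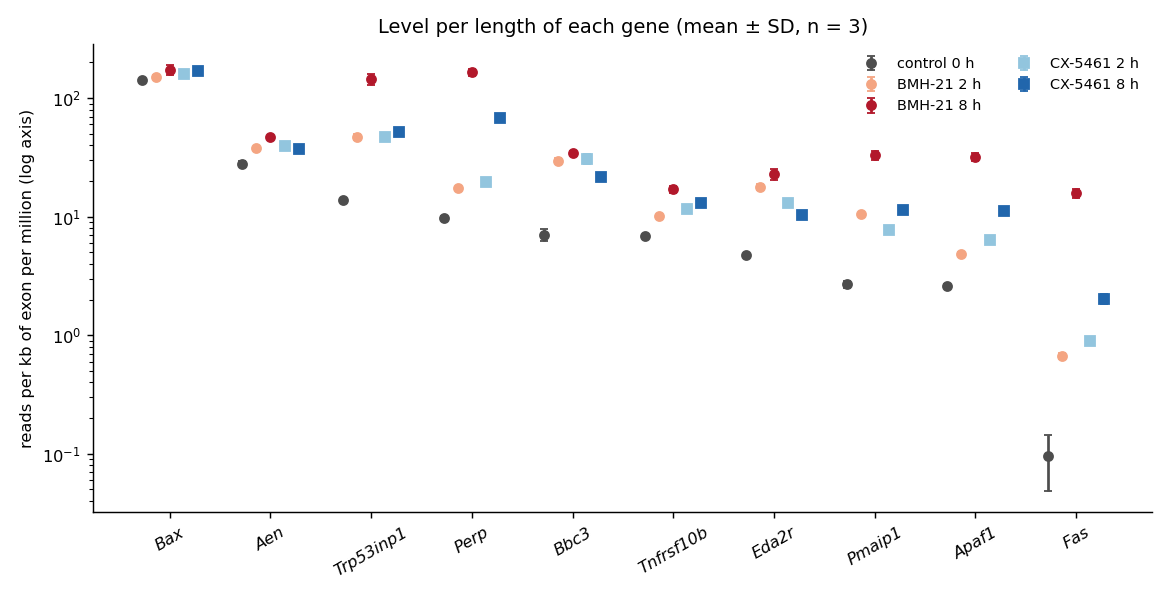
Level of each gene (x axis) in reads per kilobase of exon per 1000000 reads (y axis, log scale) for the control and 4 of the treated groups named in the legend, as mean ± SD of 3 libraries. Bax keeps the highest mean, at 141 to 173 RPKM, though its values overlap those of Perp at 8 h of BMH-21. Fas climbs from 0.0964 to 15.8 at 8 h of BMH-21.

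The genes whose 7 group means ran most like those of a member were taken by Pearson correlation among 6600 genes that spanned at least 1 log2 unit. These are descriptions over 7 group means that share the same libraries. Bbc3 ran most like Lif (r = 0.98), the cytokine supplied in the medium, and Cdkn1a (0.98). Apaf1 ran most like Sv2b (r = 0.9995), a synaptic vesicle protein gene, and Fas most like Myog (0.9974) and Itgb2 (0.9965), an integrin subunit gene. Perp ran most like Gpx3 (0.9965) and Ckm (0.9955), Pmaip1 like Tgtp2 (0.9946), and Trp53inp1 like Zfp28 (0.9929). Eda2r ran most like Vasn (0.9743), Tnfrsf10b like Cd81 (0.9848) and Aen like Nodal (0.9949). Aen spanned only 0.38 log2 units between group means, and with centred libraries its r with Nodal was 0.9038. For Bax the best r of 0.9958 dropped to 0.5406 with centred libraries. Among the members themselves Trp53inp1 and Pmaip1 ran most alike (r = 0.98), and Bbc3 and Perp far less so (0.47).

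In the rest of the pathway 6 genes of p53 control were read, of which 4, 5 and 4 were called higher at 2, 4 and 8 h of BMH-21, beside 8.48%, 22.1% and 24.5% of all genes. For CX-5461 the counts were 5, 5 and 5, beside 7.45%, 19.8% and 35.1%. With centred libraries 5 of 6 were higher in each of these comparisons. Trp53 was called lower at 4 and 8 h of each. Mdm2, the ubiquitin ligase that restrains p53, rose by 2.22, 3.01 and 2.71 at 2, 4 and 8 h of BMH-21. The CX-5461 values of Mdm2 were 2.24, 2.43 and 1.75. Cdkn1a, with a promoter window printed above, rose by 2.67, 2.70 and 2.46 under BMH-21, and under CX-5461 by 2.46, 1.98 and 1.87. The p53 transcript, Trp53, fell by 1.38 ± 0.10 at 8 h of BMH-21 (limma adjusted p = 1.3e-25) and by 0.68 ± 0.10 at 8 h of CX-5461 (4.1e-09). Of 20 further p53 targets linked to death 7, 11 and 12 were called higher in BMH-21 at 2, 4 and 8 h, and 0, 2 and 1 lower. In CX-5461 5, 12 and 16 were higher and 1, 2 and 0 lower. With centred libraries the higher counts were 12, 17 and 15 in BMH-21 and 12, 17 and 16 in CX-5461. The lower counts were then 2, 2 and 1 in BMH-21 and 1, 2 and 0 in CX-5461. The shares of all genes called higher are those given above and belong to the deposited counts. None was computed for centred libraries. Of all genes tested 11.2%, 44.9% and 56.9% were called lower at the 3 times of BMH-21, and 20.5%, 51.2% and 14.3% at those of CX-5461. The median changes of the 20 genes were 0.10, 0.48 and 0.70 in BMH-21, then 0.16, 0.46 and 0.73 in CX-5461. The largest rises at 8 h of BMH-21 were those of Ddit4, an inhibitor of mTOR signalling, at 3.36 ± 0.11, and Plk2, a polo-like kinase, at 3.31 ± 0.10. Bid, which links caspase 8 to the mitochondria, fell by 0.53 ± 0.11 in that group.

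The ligands and adaptors of the death receptors were read as 1 list. Of 12 such genes 9 passed the filter, and 1, 1 and 2 were higher and 3, 4 and 4 lower at 2, 4 and 8 h of BMH-21. With CX-5461 1, 1 and 3 were higher and 1, 3 and 0 lower. Centring gave 2, 4 and 4 higher and 3, 4 and 4 lower in BMH-21, and 2, 2 and 2 higher and 0, 2 and 0 lower in CX-5461. Beside the deposited counts, 8.48%, 22.1% and 24.5% of all genes were higher and 11.2%, 44.9% and 56.9% lower in BMH-21. In CX-5461 the shares were 7.45%, 19.8% and 35.1% higher and 20.5%, 51.2% and 14.3% lower. Edaradd, the adaptor of the ectodysplasin receptor Edar, rose by 0.65, 3.86 and 4.11 at 2, 4 and 8 h of BMH-21. Its rises in CX-5461 were 1.71, 3.88 and 2.71. Tnfsf10, the gene of TRAIL, rose by 0.48 ± 0.12 at 8 h of BMH-21 (limma adjusted p = 9e-05). Casp8, the initiator caspase that Fas recruits, fell by 0.93 ± 0.18 there (1.4e-06), and Eda, which encodes ectodysplasin, fell by 0.84 ± 0.17 (3.7e-06). At 8 h of CX-5461 Casp8 was called higher, by 0.42 ± 0.18 (0.042), and with centred libraries it was not (0.20, adjusted p = 0.11). Fasl, the ligand of Fas, was below the filter, with 0 to 5 reads in every library.

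On the apoptosome and executioner side, 15 genes from cytochrome c to the caspases and their inhibitors, 1, 5 and 3 were higher and 1, 6 and 9 lower at 2, 4 and 8 h of BMH-21. With CX-5461 1, 3 and 4 were higher and 3, 10 and 0 lower. Centring gave 5, 6 and 5 higher and 1, 6 and 9 lower in BMH-21, and 4, 5 and 4 higher and 3, 9 and 7 lower in CX-5461. The 9 of 15 lower at 8 h of BMH-21 are near the 56.9% of all genes. The 10 of 15 lower at 4 h of CX-5461 stand beside 51.2%. The shares for the other deposited counts are those printed with the death receptor list. Their median at 8 h of BMH-21 was -0.56, beside -0.40 for all genes. Dffb, the DNase that cuts chromatin in dying cells, rose by 1.36, 3.03 and 3.49 at 2, 4 and 8 h of BMH-21. Its rises in CX-5461 were 1.54, 2.55 and 1.53. Endog, a mitochondrial nuclease, rose by 0.80 ± 0.12 at 8 h of BMH-21. Birc3, an inhibitor of apoptosis, fell by 0.83 ± 0.16 in that group.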

How the data were processed

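The 21 poly(A) RNA libraries, made with a directional kit per the labels' protocols, were read through 1 deposited table of log2 values for 20900 genes, which the authors normalized with voom by its name. The submitters' processing notes name Trim Galore 0.5.0, TopHat2 2.1.1, R 4.0.5, DESeq2 1.30.1, edgeR 3.32.1 and limma 3.46.0 and the build mm10, without roles; the counter, annotation and filters are not given in the sources used here, nor is the origin of the scaling factors (0.832 to 1.375, against median-ratio factors of 0.941 to 1.107). Whole reads, recovered to within 1.8e-08, gave RPKM and the depth of 46604397 to 62812641 reads per library. Copies made by PCR were not marked, so depth speaks of counting error only. The table's kit marks strand, but whether counting used strand is not given in the sources used here.

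Groups came from sample titles. The deposited log2 values were tested with limma 3.58.1 in R 4.3.3, 1 mean per group, eBayes with trend, two-sided, Benjamini-Hochberg over 14666 genes with a log2 value above 0 in at least 3 libraries, threshold 0.05, in 15 comparisons; 6234 genes were below the filter. Prior degrees of freedom were 111.5 (8.5 with centred libraries) beside 14 residual ones, so a gene's own spread had little weight on the deposited scale. The SD of its own libraries was above the SD used for Fas (0.286 against 0.201, ratio 1.42). That ratio was 1.33 for Trp53inp1, 1.24 for Eda2r, 1.22 for Apaf1 and 1.17 for Pmaip1, whose printed SE thus understate their own spread. It was 0.79 to 0.98 for the other members. The fit was tested on simulated data. Named genes were all 10 members, and per further list the 2 largest rises and 2 largest falls at 8 h of BMH-21 past the threshold, with Fasl, Tnfsf10, Eda, Ikbip, Trp53, Cdkn1a and Mdm2; like genes were the 2 with the highest r. The members and lists were chosen with earlier results of these data known. Casp1 was not analysed here. A gene that the rule for the further lists names is not reported here. Primitive endoderm and trophoblast markers summed to 16.0 to 16.8 and 6.58 to 7.10 reads per 1000000 in the controls. At 8 h they summed to 24.9 to 26.6 and 12.5 to 13.4 in BMH-21, and to 19.3 to 21.0 and 13.5 to 14.9 in CX-5461. At 8 h of BMH-21 Gata4 (-0.70), Dab2 (-1.06), Sox7 (-0.885) and Eomes (-1.095) were called lower. Gata6 (0.65), Pdgfra (2.01), Cdx2 (1.36) and Hand1 (1.45) were called higher there. At 8 h of CX-5461 Gata6 (0.72), Pdgfra (0.925), Cdx2 (1.26), Eomes (0.87) and Hand1 (1.25) were called higher and none of these markers lower. With centred libraries Sox17 (0.48) was also called higher at 8 h of BMH-21. Gata4 (-0.46) and Dab2 (-0.44) were then called lower at 8 h of CX-5461. Pdgfra is counted in the fibroblast sum too. Alternatives were other scalings, filters, a 5-read offset, other variance models, fewer groups, the replicate number as a block, and leaving out each library. Gene positions were matched by symbol to GENCODE M21 (10 of 10 members) and promoters to RefSeq GRCm38.p6 (6 of 10). Figures were drawn with matplotlib 3.10.9.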

Additional observations from a re-analysis of the deposited data

Results flagged for a closer look

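For 6 of the 10 genes the change over a time step differed between the inhibitors by a test of the difference itself (limma interaction, BMH-21 minus CX-5461), and the values are log2 differences of 2 changes. From 2 to 4 h the differences were 0.69 for Pmaip1 (adjusted p = 0.004) and 1.09 for Fas (0.00089). From 4 to 8 h they were 1.72 for Fas (3.2e-10), 1.17 for Apaf1 (3.1e-10), 0.47 for Perp (0.0049) and 0.43 for Trp53inp1 (0.01). Of all genes tested 1.10% were called higher in the 2 to 4 h difference. In the 4 to 8 h difference 7.98% were called higher and 61.4% lower, so a call there was common among all genes. In that step Fas and Apaf1 fell with CX-5461, where Fas rose with BMH-21. The Trp53inp1 difference was 0.33 and not called without BMH-21 4 h replicate 3 or without BMH-21 8 h replicate 3. For Bax the 4 to 8 h difference was -0.54 (0.00067), and with centred libraries it was -0.10 and not called.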

How the results depend on the processing

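The 60 changes of the 10 genes against control were recomputed under 960 pairs of value and setting. Direction and call stayed the same in 930, 5 were no longer called, 9 became called and 16 changed sign, and 0 of those 16 were outside Bax. The scalings moved results most. Bax at 8 h of BMH-21 was 0.11 with median-ratio factors and 0.38 with quantile normalization, and 0 genes were then lower, as with centring. With CX-5461 Bax was 0.15, 0.18 and 0.17 at 2 h and 0.07, 0.16 and 0.28 at 4 h under centring, median-ratio factors and quantile normalization, and -0.042 at 8 h under centring. In the same order of scalings BMH-21 minus CX-5461 at 8 h was 0.007, 0.052 and 0.073 for Bax, 0.37, 0.42 and 0.41 for Tnfrsf10b and 0.30, 0.35 and 0.37 for Aen, with 0 genes lower. At 2 h 2, 3 and 2 genes were lower with BMH-21 and at 4 h 1, 1 and 1. From 4 to 8 h of BMH-21 4, 4 and 5 genes rose, and 1 fell with median-ratio factors and with quantile normalization, the latter with Bax at 0.10. From 4 to 8 h of CX-5461 1 gene rose and 8 fell under all 3 scalings, with Bax at -0.11 under centring and -0.10 with median-ratio factors, and from 2 to 4 h 8 rose under quantile normalization. The 2 to 4 h step was larger with BMH-21 for 7, 7 and 6 genes and the 4 to 8 h step for 9, 9 and 9, with 0 smaller and Bax at 0.074 under quantile normalization. First answers to BMH-21 then fell at 4 h for 1 gene and at 8 h for 0. With CX-5461 1 gene answered first at 4 h under quantile normalization, and 0 genes did not answer with median-ratio factors or quantile normalization. Causes were not tested.

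Leaving out 1 library at a time, Bax ran from -0.022 to 0.072 and from -0.027 to 0.109 at 2 and 4 h of BMH-21 and from -0.076 to 0.067 at 2 h of CX-5461, and Tnfrsf10b from -0.137 to 0.053 between the inhibitors at 8 h. Counts ran from 0 to 1 lower at 8 h of BMH-21, 2 to 4 higher and 1 to 2 lower from 4 to 8 h of BMH-21, 1 to 2 higher and 3 to 5 lower from 4 to 8 h of CX-5461, and 1 to 2 smaller steps from 4 to 8 h. First answers to BMH-21 ran from 0 to 1 at 8 h and from 0 to 1 at no time. In deviations from the group means 0 of 39 same-numbered pairs correlated above 0.1 (-0.251 to 0.093). Deviations from means of 3 libraries cannot settle whether the same replicate numbers mark shared samples. With the replicate number as a block the counts were the same, 9, 9 and 8 genes higher in BMH-21 and 9 at each time in CX-5461. Depth limits Fas in the controls, at 7 to 17 reads.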

Other observations

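Neighbours of the members were read off GENCODE M21, and their values are given without a test. Isg20, an exonuclease gene that begins 2214 bases downstream of Aen on the same strand, had mean log2 values of -1.74 in the controls, 0.15, 0.39 and -0.54 at 2, 4 and 8 h of BMH-21, then -0.58, -0.69 and -0.86 in CX-5461. The noncoding gene 4930444F02Rik, 13089 bases from Perp on the other strand, stood at -4.07 in the controls and at -3.78, -0.21 and 2.45 with BMH-21, against -3.89, -0.17 and -0.40 with CX-5461. Ccdc9, beside Bbc3, stood at 5.53 in the controls, at 5.73, 4.94 and 4.87 at 2, 4 and 8 h of BMH-21 and at 5.59, 5.28 and 5.71 in CX-5461. Sae1, on its other side, stood at 9.04 in the controls, at 9.01, 8.88 and 8.39 in BMH-21 and at 8.91, 8.69 and 8.81 in CX-5461. Edar, the receptor that Edaradd serves, was below the filter with 2 to 7 reads per control library and 21 to 25 at 8 h of BMH-21, and Tnf with 0 to 5 reads in every library.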
